A study of Homo sapiens with 6 samples.

Results

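The transcription factors PHOX2A, HAND1, HAND2, GATA2, GATA3, ISL1, TBX2 and TFAP2B were followed in BE-(2)-C cells after an siRNA against ELF4. These genes were chosen by name as members of the adrenergic core regulatory circuit, and 8 of 8 had a row of their own among the 26906 rows of the table. RNA with polyA tails was taken 48 hours after treatment from 3 libraries with control siRNA and 3 with ELF4 siRNA. BE-(2)-C is an established line of human neuroblastoma cells in which MYCN is amplified, and every library of both groups carries that background. It is a clonal subline of a single tumour, so the groups describe that clone. The siRNA sequences are not known here. ELF4 is itself a DNA-binding protein, of the ETS class, and the title of the series links it to proliferation and the undifferentiated state. The comparison therefore asked whether the factors that hold the sympathetic identity of these cells differed in level when ELF4 was reduced.

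Most neuroblastoma cells have an adrenergic identity, which resembles that of the sympathetic neuroblasts from which the tumour arises. This identity is held by a circuit of transcription factors that bind the enhancers of their own genes and of one another, so that each supports the expression of the rest, and many of these enhancers are unusually large. PHOX2A and ISL1 are homeodomain proteins, HAND1 and HAND2 are basic helix-loop-helix proteins, GATA2 and GATA3 are zinc finger proteins, TBX2 is a T-box protein and TFAP2B belongs to the AP-2 family. In the embryo, HAND2, GATA2, GATA3 and PHOX2A act in the formation of sympathetic ganglia and of noradrenergic neurons, in which they support the enzymes of noradrenaline synthesis.

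The libraries held 23148635 to 38097986 recovered reads, and 3 in each group are the replicates throughout (values are mean ± SD, n = 3). ELF4 went from 42.7 ± 3.96 to 4.74 ± 1.42 normalized read counts, which rest on 34 to 66 reads per control library and on 3 to 5 reads per ELF4 siRNA library. Its log2 fold change was -2.96 (limma adjusted p = 5.38e-07). Over the whole table, 9173 of 20339 genes tested passed an adjusted p of 0.05 (45.1%), 4217 higher and 4956 lower. Markers of other cell types were summed in each library. Glial markers summed to 240.1 to 267 normalized read counts in control libraries and to 245 to 263 in ELF4 siRNA libraries, with SOX10 at means of 2.01 and 4.95. Epithelial markers summed to 201 to 221 and to 175 to 217, and blood and endothelial markers to 53.7 to 67.8 and to 36.4 to 50.5. Fibroblast markers, of which neuroblastoma cells express several, summed to 9158 to 9354 and to 8099 to 8707. These sums were above the single levels of TBX2, GATA3, TFAP2B and ISL1, and THY1 alone averaged 5376 and 4443. The 4 fibroblast markers with the smallest adjusted p had log2 fold changes of 1.75 (COL3A1), 0.83 (DCN), -1.19 (PDGFRB) and -0.28 (THY1). Of the genes tested, 1 of 4 glial markers was higher and 2 lower, 1 of 3 epithelial markers higher and 1 lower, 1 of 2 blood and endothelial markers higher and 1 lower, and 4 of 7 fibroblast markers higher and 2 lower. The part of these genes in the results below was not tested. In a bulk sample, fewer cells of a type and less RNA per cell cannot be told apart.

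The circuit did not move in one direction. After ELF4 siRNA, HAND2, GATA2 and TFAP2B were higher, HAND1, ISL1 and TBX2 were lower, and GATA3 and PHOX2A did not pass the test. Thus 3 of the 8 were higher, beside 20.7% of all genes tested, and 3 were lower, beside 24.4%. In all, 6 of the 8 factors passed, beside 45.1% of all genes tested and 57.5% of the 13056 genes with a mean of at least 100. For the same 6 factors the 2 groups had no overlapping values, beside 53.6% of all genes tested and 64.6% of those with a mean of at least 100. The same 6 passed with edgeR, which called 45.5% of genes, and with DESeq2, which called 39.3%. Their log2 fold changes ran from -0.28 for HAND1 to 0.44 for HAND2, with a median of 0.0038, beside a median of -0.0042 over all genes tested. HAND2 and HAND1 were the 2 factors whose absolute change exceeded 0.25, while the median absolute log2 fold change of genes with a mean of at least 100 was 0.197, with quartiles of 0.09 and 0.35. Of those genes, 17.02% had a larger absolute change than HAND2, 34.2% than HAND1, 48.8% than TFAP2B, 57.3% than GATA2, 58.4% than ISL1, 62.5% than TBX2, 75.3% than GATA3 and 77.3% than PHOX2A. The calls of GATA2, TFAP2B, ISL1 and TBX2 depended on how limma moderates the spread, since without a trend on expression level their adjusted p values were 0.0601, 0.0543, 0.0773 and 0.0694. Then 1 factor was called higher, HAND2, and 1 lower, HAND1. The share of all genes called without the trend is not given here, so this drop cannot be set against it.

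**Figure D1:**
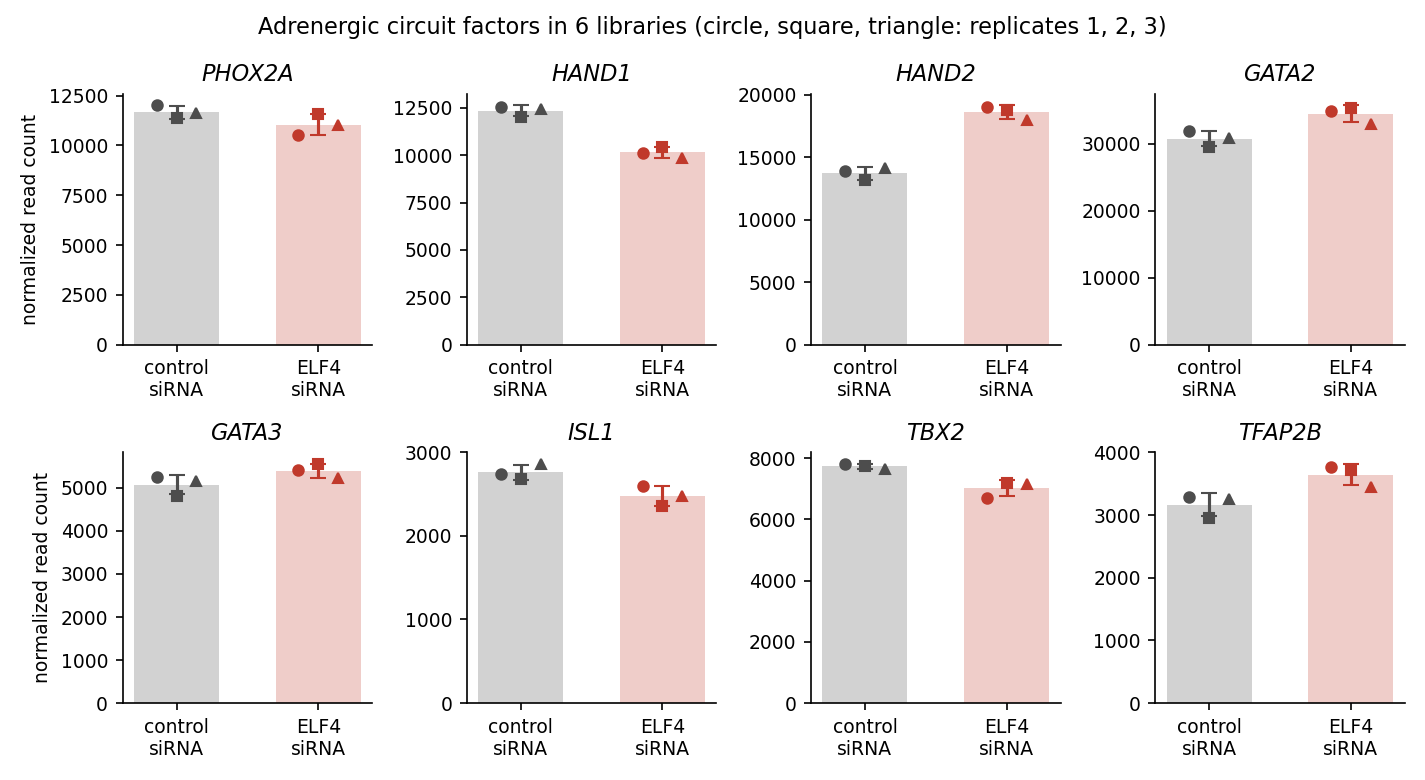
Normalized read count of each of the 8 factors on the y axes, with 1 panel per gene, in the 3 control siRNA libraries (grey) and the 3 ELF4 siRNA libraries (red). Bars are means, error bars are SD, and symbols are libraries; the groups are clearly apart for HAND1 and HAND2, and they overlap for PHOX2A and GATA3.

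**Figure D2:**
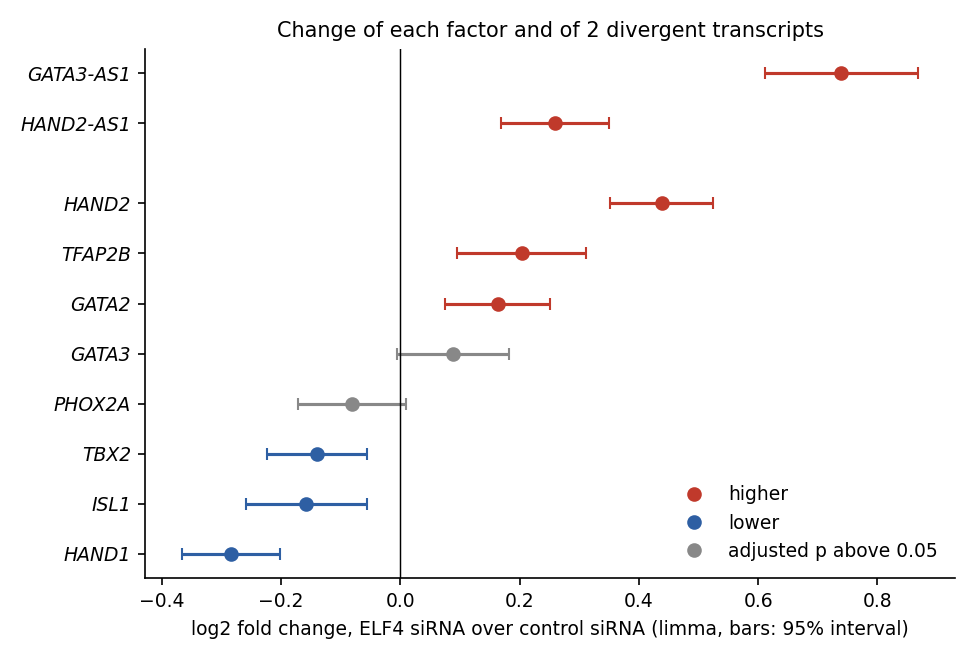
Log2 fold change, ELF4 siRNA relative to control siRNA (x axis), with its 95% interval from limma for the 8 factors and, above the gap, for the divergent transcripts HAND2-AS1 and GATA3-AS1. The factors lie between -0.28 and 0.44, and the interval crosses 0 for GATA3 and PHOX2A.

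HAND1 and HAND2 were the factors with the largest changes, and they moved in opposite directions. They are paralogous basic helix-loop-helix factors that bind E-box motifs together with E proteins such as TCF3, and HAND2 is required for the noradrenergic character of sympathetic neurons. The sequences around their transcription start sites are shown here because the genes are paralogs with opposite changes, and because HAND2 shares its window with an antisense transcript. They are RefSeq promoter windows of build GRCh38.p14, from 250 bases before to 50 bases after the start, at chr4:173530180-173530479 on the minus strand for HAND2 and at chr5:154478178-154478477 on the minus strand for HAND1. Capitals mark matches on either strand to any of 8 motifs. The core that ETS factors bind was searched in the form GGAAG, and CCGGAAG is a longer form. AGATAA is a common form of the motif of GATA factors. Basic helix-loop-helix proteins recognise the E-box, searched here as CAGATG. A further E-box form that was searched is CAGCTG. Homeodomain proteins often bind TAATTA. The motif of T-box proteins was searched as AGGTGTGA. That of AP-2 proteins was searched as GCCNNNGGC.
HAND2: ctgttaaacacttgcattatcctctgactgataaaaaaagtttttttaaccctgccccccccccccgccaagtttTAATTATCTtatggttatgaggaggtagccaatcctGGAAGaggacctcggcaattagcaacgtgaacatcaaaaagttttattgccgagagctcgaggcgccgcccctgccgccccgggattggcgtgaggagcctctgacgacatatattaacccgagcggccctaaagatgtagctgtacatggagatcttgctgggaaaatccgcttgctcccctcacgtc
HAND1: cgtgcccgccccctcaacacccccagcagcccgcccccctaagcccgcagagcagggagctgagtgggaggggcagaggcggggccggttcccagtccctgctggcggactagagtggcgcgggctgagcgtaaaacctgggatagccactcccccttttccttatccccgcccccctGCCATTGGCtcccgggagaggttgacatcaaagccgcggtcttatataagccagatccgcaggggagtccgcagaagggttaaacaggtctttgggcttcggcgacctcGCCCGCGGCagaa
The HAND2 window holds TAATTA from base -175, the reverse complement of AGATAA from base -172, which overlaps it, and GGAAG from base -139, counted from the start site. Of all 35116 windows of this length, 4.84% hold TAATTA, 10.3% AGATAA and 71.9% GGAAG. The HAND1 window holds none of these 3 motifs as searched, and it holds GCCNNNGGC from bases -72 and 38, a motif found in 23.2% of all windows. The shorter ETS form GGAA was not among the motifs searched. The printed HAND1 letters hold it on the opposite strand, so the absence of GGAAG does not show that an ETS core is absent. The guanine and cytosine content was 50.3% for HAND2 and 66.0% for HAND1. A match describes the letters only.

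HAND2 had normalized read counts of 13881, 13138 and 14112 in control replicates 1, 2 and 3, and of 18983, 18797 and 17937 in ELF4 siRNA replicates 1, 2 and 3. The lowest ELF4 siRNA library lay well above the highest control library. The mean went from 13710.4 ± 509 to 18572 ± 558, which is 135% of the control level (log2 fold change 0.44, 95% interval 0.35 to 0.52, limma adjusted p = 1.01e-06). HAND1 had 12561, 12030.1 and 12447 normalized read counts in the control libraries, and 10131, 10457 and 9843 in the ELF4 siRNA libraries. All 3 ELF4 siRNA values were below all 3 control values. Its mean went from 12346 ± 279 to 10144 ± 307, or 82.2% of control (log2 fold change -0.28, 95% interval -0.37 to -0.20, limma adjusted p = 3.49e-05). Both calls held under every alternative tried.

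The ratio of HAND2 to HAND1 within a library does not depend on how libraries are scaled. It was 1.11, 1.09 and 1.13 in the control libraries and 1.87, 1.80 and 1.82 in the ELF4 siRNA libraries, so the groups were far apart and the spread within each was small. The ratio is not corrected for exon length (2780 bases for HAND2 and 1738 for HAND1). Per kilobase, HAND1 was the higher of the 2 in the control libraries, at 7103 against 4932. The mean log2 ratio went from 0.15 ± 0.03 to 0.87 ± 0.03, a difference of 0.72. An exact permutation test, two-sided, gave p = 0.1 (0.1 after adjustment over the 2 paralog ratios tested), the smallest that 3 libraries against 3 allow. Leaving out any library gave a difference of 0.71 to 0.74.

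HAND2-AS1, the antisense transcript of the HAND2 locus, was higher as well. RefSeq places one of its starts 229 bases upstream of the HAND2 start on the opposite strand, so that 272 bases of the window printed above are shared with it. Its normalized read counts were 11529, 10872 and 11936 in the control libraries and 14101, 13630.1 and 13360.4 in the ELF4 siRNA libraries, without overlap. The log2 fold change was 0.26 (SE 0.04, limma adjusted p = 0.000172), beside 0.44 for HAND2. As a percentage of HAND2 it was 83.1%, 82.7% and 84.6% in the control libraries and 74.3%, 72.5% and 74.5% in the ELF4 siRNA libraries, a difference that was not tested. These percentages are not corrected for length, since HAND2-AS1 has 12900 exon bases and HAND2 has 2780. Per kilobase of exon, HAND2-AS1 averaged 887 normalized read counts in the control libraries, against 4932 for HAND2. In GENCODE 29, 105 exon bases of HAND2 (3.78%) are shared with HAND2-AS1. No strand setting is given, so reads from that stretch cannot be told apart.

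**Figure D3:**
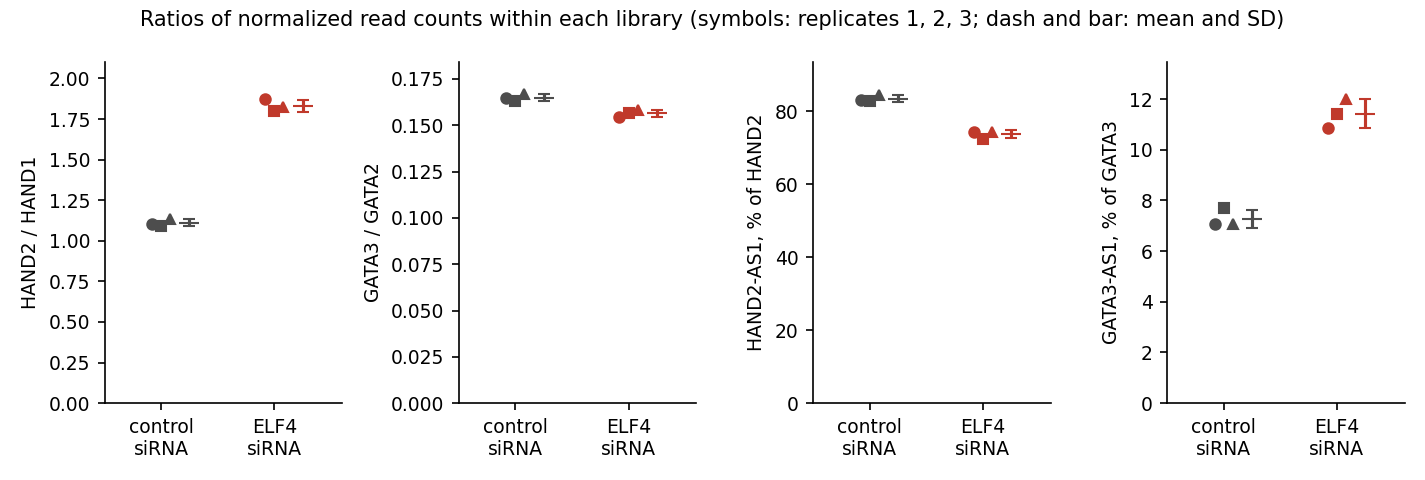
Ratios of normalized read counts within each library (y axes, from 0) for HAND2 over HAND1, GATA3 over GATA2, HAND2-AS1 as a percentage of HAND2 and GATA3-AS1 as a percentage of GATA3. The ratios are not corrected for exon length. Symbols are the 3 control (grey) and 3 ELF4 siRNA (red) libraries, and dashes with bars are mean and SD; HAND2 over HAND1 goes from 1.11 to 1.83 on average.

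The GATA factors changed little. GATA2 had 31856, 29576 and 30867 normalized read counts in the control libraries, and 34964, 35393 and 33008 in the ELF4 siRNA libraries. The groups did not overlap, but the gap between the highest control and the lowest ELF4 siRNA library was smaller than the range within either group. The mean went from 30767 ± 1143 to 34455 ± 1271 (log2 fold change 0.16, 95% interval 0.08 to 0.25, limma adjusted p = 0.0049). GATA3 had 5252, 4817 and 5155 in the control libraries and 5407, 5545 and 5227 in the ELF4 siRNA libraries, where control replicate 1 lay above ELF4 siRNA replicate 3. Its log2 fold change of 0.09 did not pass (95% interval -0.01 to 0.18, limma adjusted p = 0.115), and the interval includes the GATA2 value. The ratio of GATA3 to GATA2 was 0.165, 0.163 and 0.167 in the control libraries and 0.155, 0.157 and 0.158 in the ELF4 siRNA libraries. These did not overlap, and the difference of the log2 ratio was -0.08 (exact permutation p = 0.1, two-sided, the smallest possible; 0.1 after adjustment over the 2 ratios).

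The GATA3 window that faces GATA3-AS1 is shown because the antisense transcript passed the test where GATA3 did not; the difference between them was not tested. It lies at chr10:8053391-8053690 on the plus strand (GRCh38.p14, RefSeq), 1 of 6 windows that RefSeq gives for GATA3, and capitals mark the same motifs as above.
GATA3: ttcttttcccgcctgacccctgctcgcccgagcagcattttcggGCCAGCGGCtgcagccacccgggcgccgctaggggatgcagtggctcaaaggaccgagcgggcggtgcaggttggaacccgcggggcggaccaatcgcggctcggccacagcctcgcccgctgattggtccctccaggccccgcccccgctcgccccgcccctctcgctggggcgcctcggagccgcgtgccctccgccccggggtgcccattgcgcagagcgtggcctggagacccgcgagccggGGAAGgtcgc
It holds GCCNNNGGC from base -206 and GGAAG from base 41. GATA3-AS1 starts 157 to 219 bases away on the minus strand, depending on its transcript. In the control libraries GATA3-AS1 had 370.3, 370.1 and 363 normalized read counts, and in the ELF4 siRNA libraries 586, 633 and 627. The groups were far apart, with a mean of 368 ± 3.93 against 615 ± 25.6 and a log2 fold change of 0.74 (95% interval 0.61 to 0.87, limma adjusted p = 3.14e-07). As a percentage of GATA3, without correction for exon length, it went from 7.26% ± 0.37 to 11.4% ± 0.58. GENCODE 29 gives GATA3 no exon base shared with another gene. Another row joins GATA3-AS1 with a second name, and it was not added to these values.

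Of the homeodomain factors, ISL1 was lower and PHOX2A did not pass. PHOX2A, which directs the noradrenergic phenotype and activates the gene of dopamine beta-hydroxylase, had 12007, 11378 and 11610.5 normalized read counts in the control libraries. In the ELF4 siRNA libraries it had 10526, 11583 and 11003, and replicate 2 lay within the control range. Its mean went from 11665 ± 318 to 11037 ± 529 (log2 fold change -0.08, 95% interval -0.17 to 0.01, limma adjusted p = 0.138). Without that library it passed (log2 fold change -0.12, adjusted p = 0.0485). ISL1, a LIM-homeodomain factor of early sympathetic and motor neurons, had 2732, 2679 and 2858 in the control libraries and 2593, 2353 and 2471 in the ELF4 siRNA libraries. The groups did not overlap, though the lowest control library and the highest ELF4 siRNA library were close. Its log2 fold change was -0.16 (95% interval -0.26 to -0.06, limma adjusted p = 0.0141). This call was lost without control replicate 3 (adjusted p = 0.0702) or without ELF4 siRNA replicate 2 (adjusted p = 0.0645).

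The ISL1 window is shown because it is the one among the 13 windows of these factors in which the GATA and ETS letters adjoin. It lies at chr5:51383198-51383497 on the plus strand (GRCh38.p14, RefSeq), with capitals as above.
ISL1: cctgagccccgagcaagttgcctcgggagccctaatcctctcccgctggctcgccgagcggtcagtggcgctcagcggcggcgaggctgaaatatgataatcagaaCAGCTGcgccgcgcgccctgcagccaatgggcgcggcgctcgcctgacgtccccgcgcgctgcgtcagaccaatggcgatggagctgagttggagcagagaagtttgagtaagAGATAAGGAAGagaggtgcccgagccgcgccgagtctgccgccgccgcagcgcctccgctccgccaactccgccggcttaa
AGATAA starts at base -31 and GGAAG follows it directly from base -25, and CAGCTG, found in 17.9% of all windows, starts at base -144. RefSeq windows were found for 7 of the 8 factors, TBX2 being the other. GGAAG was in 8 of the 13 windows, beside 71.9% of all windows, and GATA3 has the most windows of these factors. It was present in at least 1 window of GATA2, GATA3, HAND2 and ISL1, of which 2 were higher, 1 was lower and 1 did not pass. The longer ETS motif CCGGAAG, which contains GGAAG and is found in 10.3% of all windows, was present in GATA3 alone among these factors, in a window other than the one printed. AGGTGTGA was in none of the 13 windows and is in 0.98% of all windows.

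TBX2 was lower and TFAP2B was higher. TBX2, a T-box repressor that restrains cell cycle inhibitors, had 7799.6, 7742 and 7637 normalized read counts in the control libraries and 6712, 7182 and 7159 in the ELF4 siRNA libraries. Its control values were the tightest of the 8 factors, with a coefficient of variation of 1.07%. The mean went from 7726 ± 82.3 to 7017 ± 265 (log2 fold change -0.14, 95% interval -0.22 to -0.06, limma adjusted p = 0.00987). ELF4 siRNA replicate 1 was the lowest library, and without it the call was lost (adjusted p = 0.068). TFAP2B, an AP-2 factor needed for sympathetic neuron differentiation, had 3283, 2961 and 3258 in the control libraries and 3762, 3724 and 3449.5 in the ELF4 siRNA libraries. All 3 ELF4 siRNA values were above the control values. Its mean went from 3167 ± 179 to 3645 ± 171 (log2 fold change 0.20, 95% interval 0.09 to 0.31, limma adjusted p = 0.00446).

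Levels of different genes were compared per kilobase of exon, with exon lengths from GENCODE 29. In the control libraries the order was GATA2 at 8189 ± 304 normalized read counts per kilobase, HAND1 at 7104 ± 161, PHOX2A at 6866 ± 187, HAND2 at 4932 ± 183, TBX2 at 2314 ± 24.7, GATA3 at 1625 ± 73.0, ISL1 at 1121 ± 37.3 and TFAP2B at 549 ± 31.0. HAND1 and PHOX2A were the only neighbours in this order whose library values overlapped. In the ELF4 siRNA libraries HAND2 held place 2 at 6681 ± 201, PHOX2A place 3 at 6496 ± 312 and HAND1 place 4 at 5836 ± 177. There the values of HAND2 and PHOX2A overlapped, and those of PHOX2A and HAND1 did not. The order of the other 5 factors was the same in both groups. GATA2 ranked 104 in control libraries and 103 in ELF4 siRNA libraries among 14773 tested genes with a length, while HAND2 went from rank 213 to rank 141 and HAND1 from 130 to 170.

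**Figure D4:**
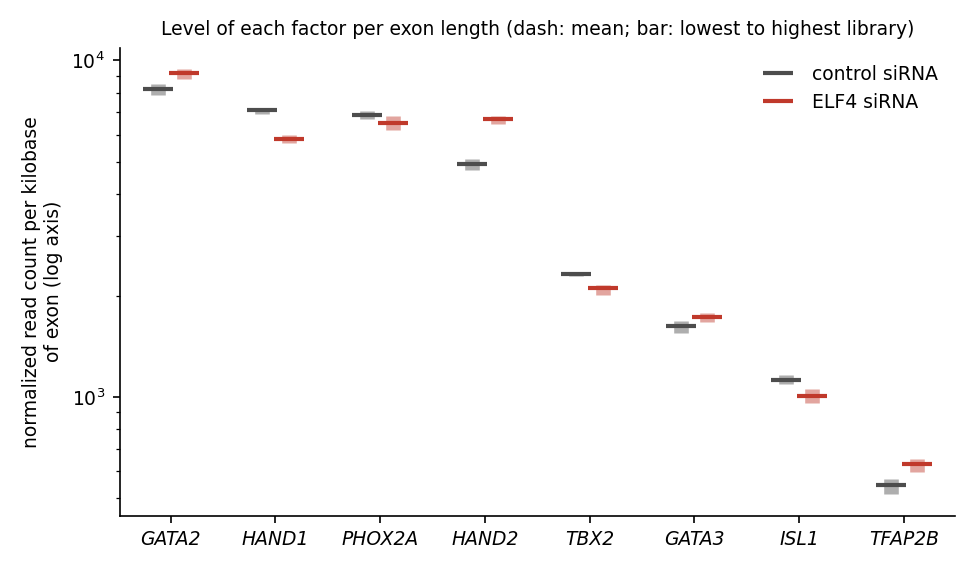
Normalized read count per kilobase of exon (y axis, log scale) of the 8 factors in control siRNA (grey) and ELF4 siRNA (red) libraries, ordered by the control mean. Dashes are means and bars run from the lowest to the highest of 3 libraries; HAND2 moves from place 4 to place 2 and HAND1 from place 2 to place 4.

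As a set, the 8 factors held 0.332%, 0.319% and 0.326% of all reads in the control libraries and 0.348%, 0.356% and 0.343% in the ELF4 siRNA libraries. Their summed normalized read count went from 87212 ± 2603 to 92736 ± 2486 without overlap of the groups, a difference of 6.33%, and the gains of HAND2 and GATA2 make up more than that sum. Of the summed level per kilobase, HAND2 held 15.1% ± 0.28 in control libraries and 19.9% ± 0.40 in ELF4 siRNA libraries, and HAND1 held 21.7% ± 0.13 and 17.3% ± 0.08. GATA2 held 25.04% ± 0.26 and 27.3% ± 0.45, and PHOX2A 21.0% ± 0.23 and 19.3% ± 0.75. Within groups the coefficient of variation of single factors was 1.07% to 5.65%. Control replicate 2 was the lowest control library for 7 of the 8 factors, beside 47.0% of the 13056 genes with a mean of at least 100. With libraries scaled to their totals it was the lowest for 6 of the 8, beside 37.8% of those genes.

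The profile of each factor over the 6 libraries was matched to all other genes with a mean of at least 100. Likeness was the root mean square difference of log2 values after subtracting each gene's control mean. The nearest genes were C1orf86 and ISG20L2 for PHOX2A, PDXDC1 and ERGIC1 for HAND1, SIK1 and FAM65A for HAND2, and LRRC61 and CASKIN2 for GATA2. For GATA3 they were IRF2BP1 and PUS7, for ISL1 SOS1 and TRMT10C, for TBX2 MTCH2 and RGS3, and for TFAP2B NAP1L1P1 and LTA4H. The differences ran from 0.0051 for LRRC61 to 0.025 for FAM65A, so HAND2 had the least close neighbours. None of these 16 genes is another circuit factor. With 13055 genes compared for each factor, that absence does not show whether the factors vary together.

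Other factors tied to the adrenergic state were called in both directions. Of 19 tested, 7 were higher, 5 were lower and 7 did not pass. The share called was 63.2%, beside 45.1% of all genes tested and 57.5% of those averaging 100 or more. Their median log2 fold change was 0.02, beside -0.0042 over all genes tested. LMO3, a LIM-only cofactor expressed in neuroblastoma, fell from 365 ± 15.5 to 145 ± 14.2 (log2 fold change -1.33, limma adjusted p = 4.00e-08). HEY1, a Notch target, fell by 0.43 on the log2 scale. The nuclear receptor gene NR2F1 rose from 544 ± 29.7 to 881 ± 33.0 (0.70), and SATB1, a chromatin organizer, from 576 ± 44.4 to 835 ± 7.48 (0.54). LMO3, NR2F1 and SATB1 had larger fold changes than any of the 8 factors, at lower read counts.

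The proteins with which the circuit factors act were also measured. Among 29 tested cofactors and partners, 8 were higher, 8 were lower and 13 did not pass; the median was 0.0086. The share called, 55.2%, was near that of genes with a mean of at least 100 (57.5%). TCF3, the E protein that dimerizes with HAND1 and HAND2, fell from 6667 ± 117 to 4585 ± 168 (log2 fold change -0.54, limma adjusted p = 1.49e-07). Its relatives TCF12 (-0.23, adjusted p = 0.000689) and TCF4 (0.16, adjusted p = 0.0104), chosen after their values were seen, moved in opposite directions. Calls of TCF12 and TCF4 under the alternatives are not given here. ID1, an inhibitor that sequesters E proteins, fell by 0.27 on the log2 scale, and the coactivator CREBBP rose by 0.24. LDB1, the adaptor that bridges LIM-domain proteins such as ISL1 to other factors, was chosen after its value was seen and did not pass (0.12, adjusted p = 0.087).

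Paralogs of the factors were mostly scarce. Of 34 listed, 13 were tested, 1 was higher, 3 were lower and 9 did not pass. The share called was 30.8%, beside 45.1% of all genes tested. GATA5 fell from 122 ± 12.4 to 67.7 ± 2.26 normalized read counts (log2 fold change -0.83, limma adjusted p = 3.33e-05), opposite to GATA2. GATA4 had 2441 ± 87.7 and 2234 ± 83.2 (-0.13, adjusted p = 0.0353), a call that was lost with DESeq2 (0.0644), without the trend (0.113) and without any library except control replicate 2 and ELF4 siRNA replicate 2. PRRX2 went from 13.6 ± 2.83 to 2.95 ± 2.38 (limma adjusted p = 0.00129). It entered the test only through its control libraries (10.4 to 15.6), so its call is not independent of that choice. LHX9 went from 1171 ± 102 to 1315 ± 57.0 (0.17, limma adjusted p = 0.0392) with overlapping groups. The LHX9 call was lost without the trend (0.14), and also without control replicate 1 (0.0847), control replicate 2 (0.146), ELF4 siRNA replicate 1 (0.128) or ELF4 siRNA replicate 2 (0.107). Of 5 antisense and neighbouring transcripts tested, HAND2-AS1, GATA3-AS1 and CLPB were higher and 2 did not pass (median 0.18), beside 20.7% higher over all genes tested. CLPB, next to PHOX2A, had a log2 fold change of 0.12 (adjusted p = 0.0199; 0.0769 without the trend, and 0.0508 to 0.0688 without control replicate 1, ELF4 siRNA replicate 1 or ELF4 siRNA replicate 2). SAP30L, near HAND1, had -0.10 (adjusted p = 0.278) and C17orf82, listed as a neighbour of TBX2, 0.18 (adjusted p = 0.507), while TFAP2D, next to TFAP2B, had means of 1.80 and 2.52, under the filter.

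Genes that the circuit is known to support in sympathetic neuroblasts included calls in both directions. Of 18 tested, 12 were higher, 4 were lower and 2 did not pass, beside 20.7% higher and 24.4% lower over all genes tested, a difference that was not tested. The share called was 88.9%, beside 57.5% of genes with a mean of at least 100. Besides DBH, the lower genes were ALK (-0.36), SLC18A2 (-0.31) and RET (-0.18). The median log2 fold change was 0.26. GAP43, a gene of axon growth, rose from 3535 ± 89.3 to 6051 ± 98.1 (log2 fold change 0.78), as did STMN2 (0.57) and the granule protein gene CHGA (0.55). Enzyme genes of noradrenaline synthesis, chosen after their values were seen, did not rise together. DBH, a target of PHOX2A, fell by 0.17 (limma adjusted p = 0.0081). DDC rose by 0.14 (adjusted p = 0.00446) and TH did not pass (0.10, adjusted p = 0.315). For DBH, DDC, ALK, SLC18A2 and RET, calls under the alternatives are not given here. In the list of mesenchymal-state genes, the identity opposed to the adrenergic one, 6 of 22 were higher, 9 were lower and 7 did not pass. The share called was 68.2%, beside 45.1% of all genes tested and 57.5% of those with a mean of at least 100. The median was -0.13. TEAD2 fell from 263 ± 21.2 to 104 ± 10.3 (-1.34) and VIM, the gene of vimentin, fell by 0.42, whereas IRF1 (0.90) and IRF2 (0.53) rose.

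**Figure D5:**
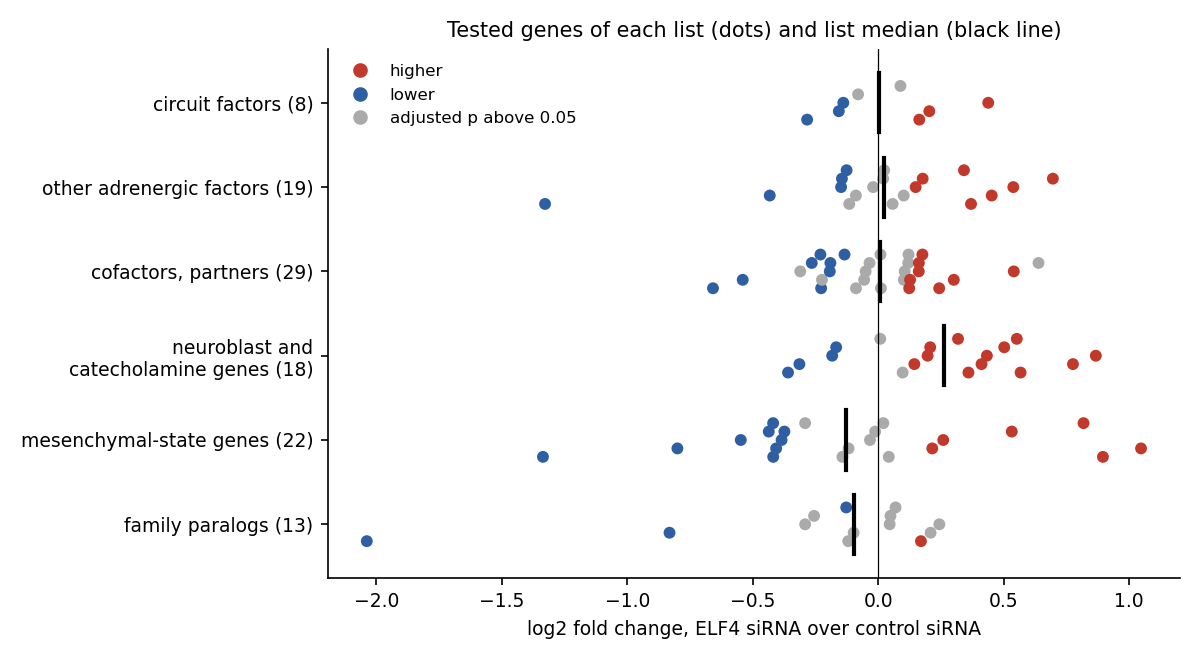
Log2 fold change, ELF4 siRNA relative to control siRNA (x axis), for the tested genes of 6 lists (rows, number tested in brackets), with 1 dot per gene coloured by its limma call and a black line at the list median. The 8 circuit factors lie between -0.28 and 0.44, and the neuroblast and catecholamine genes have the highest median, 0.26.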

How the data were processed

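RNA-seq of polyA-selected RNA was read from a table of normalized read counts deposited by the authors, a signal in which each library's reads were divided by 1 size factor. The pipeline names hg19, featureCounts, TopHat and DESeq2, per the submitters' processing notes; versions, annotation and strandedness are not given in the sources used. Every value was a whole multiple of what 1 read is worth in its library (100% of values, tolerance 0.001), which gave back whole reads; edgeR on them called 9261 genes and DESeq2 7521. The main test was limma with a trend on log2(value + 1) of the deposited values, without covariates, restricted to the 20339 genes that reached 10 in 3 or more libraries, with Benjamini-Hochberg adjustment over all of them. Some genes that were low in either group passed this filter through the other group, so their calls are not independent of it. Among them are ELF4, PRRX2, the blood marker PTPRC and the mesenchymal-state gene CREB3L1. Every fold change uses log2(value + 1), so changes of genes with few reads are understated.

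The factors and gene lists were chosen with earlier results of these data known. The 10 lists besides the factors came from textbook knowledge. Named were the factors, ELF4, matched neighbours, up to 4 genes per list with the smallest adjusted p, and the 2 nearest profiles per factor; not all are described, and some items are not reported here. No label states separate cultures; p-values may thus reflect technical spread only. Libraries of a group differed by more than sampling noise (chi-square per degree of freedom 2.05 to 5.78). Exon lengths come from GENCODE 29, on another build than hg19, for 14773 of the tested genes. RefSeq promoter windows were matched by symbol. Alternatives were other pseudocounts (0.5 and 5), filters, scalings, tests, a replicate block and leaving out each library. In a simulation of 20339 genes, log2 shifts of 0.25, 0.5 and 1 were given to 68, 66 and 66 genes. The other 20139 genes were left unchanged. Limma recovered 38.2%, 72.7% and 87.9% of the shifted sets, in that order, and called 0.0695% of the unchanged genes. Far fewer genes were shifted there than the 45.1% called in the real comparison. The Benjamini-Hochberg cutoff depends on that share, so neither the recovery nor the rate for unchanged genes carries over to the real comparison. Software was limma 3.58.1, DESeq2 1.42.0 and edgeR 4.0.16 in R 4.3.3, and pandas 2.3.3, scipy 1.17.1, matplotlib 3.10.9 and numpy 2.4.6 in Python 3.11.15.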

Additional observations from a re-analysis of the deposited data

How the results depend on the processing

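Of 128 values of the 8 factors across the alternatives, 120 led to the same call and sign, 7 no longer passed, 1 newly passed and 0 reversed. Without the trend in limma, GATA2 (log2 fold change 0.16, adjusted p = 0.0601), ISL1 (-0.16, 0.0773), TBX2 (-0.14, 0.0694) and TFAP2B (0.20, 0.0543) no longer passed, which left 1 factor called higher and 1 lower; the cause was not tested. The share of all genes called without the trend is not given here. Leaving out 1 library gave 3 factors called higher and 2 or 3 lower. Over all genes tested, those fits called 3519 to 4105 higher and 4114 to 4944 lower. ISL1 was then -0.19 to -0.12, TBX2 -0.16 to -0.11 and PHOX2A -0.12 to -0.047; the libraries that decide these calls are named above. With DESeq2, 1 family paralog was called lower instead of 3, and 1 glial marker instead of 2. TMM scaling moved the median log2 fold change of all genes by 0.0098 and scaling to totals by 0.012. No row joins a factor with another gene name, so adding joined rows was not run. ELF4 was called under all 12 alternatives in which it was tested. It dropped out of the test when any control library was left out, and under the filter on a mean of at least 100. Of 848 values of other named genes, 805 led to the same call and sign, 40 no longer passed, 3 newly passed and 0 reversed.

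The replicate numbers share no stated culture or day, and same-numbered deviations correlated at 0.029, 0.075 and 0.041, against -0.057 to 0.015 for other pairs. Each library correlated best with its own number, which is a hint from the values alone. Fitting the replicate block, 4564 genes were higher and 5346 lower, and 3 factors were called higher and 3 lower. Depth limits ELF4 itself, with 3 to 5 reads in each library after ELF4 siRNA.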
